A study of Mus musculus with 10 samples.

Results

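RGS proteins (regulators of G protein signalling) speed up GTP hydrolysis by the alpha subunits of heterotrimeric G proteins and so shorten the signal of G protein coupled receptors. In neurons they set how long receptors for glutamate, GABA, monoamines, acetylcholine and opioids act on channels and second messengers. The mammalian family is divided by sequence into the R4, R7, R12 and RZ groups. R4 proteins are small and hold little beyond the RGS domain, R7 proteins work as obligate dimers with the G beta subunit Gnb5, and RZ proteins act on Gi and in particular on Gz. Here 10 RGS genes were followed in cultured mouse neurons treated with SP600125, a compound that blocks JNK, the kinases that phosphorylate the transcription factor Jun. Of these 10 genes, 9 had an array probe set with a single gene symbol, out of 19938 such genes in all. They were Rgs2, Rgs3, Rgs4, Rgs5, Rgs8 and Rgs16 of the R4 group, Rgs7 and Rgs9 of the R7 group, and Rgs17 of the RZ group. Rgs10, of the R12 group, had no such probe set and was not analysed here. Where a gene had several probe sets, the one chosen by its highest mean signal over all 10 arrays stood for the gene, and the family was picked from earlier results of the same comparison, in which Rgs4 stood out. The changes of these genes are therefore descriptions, and no support is drawn from how many of them changed.

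The cells were terminally differentiated neurons of the strain 129Sv-C57Bl/6, a mixed background. SP600125 was given at 25 uM, applied 3 times with 2 hours between applications, and the control cultures received the solvent DMSO on the same schedule. Each group held 5 samples, replicates a to e, with 1 Affymetrix whole-transcript array each. Replicates a and b of each group carry the label of drug batch 1, and the other 3 replicates that of drug batch 2. The DMSO samples carry these labels too, although they received no SP600125. Other differences between the batches therefore cannot be told apart from the drug. The labels call the replicates biological and do not say that they came from separate cultures, so the p-values measure the spread between these samples only, which may be technical.

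The values are log2 array signals as deposited, and their precision is limited by the number of arrays. Pairs of DMSO arrays correlated across genes at 0.994 to 0.997, pairs of SP600125 arrays at 0.991 to 0.995, and pairs of unlike arrays at 0.982 to 0.993. The SD of gene values on an array was 1.76 to 1.84 for DMSO and 1.63 to 1.71 for SP600125, so the spread of signals was narrower after SP600125. As a gauge of background, the median of 1015 olfactory receptor genes lay between 3.59 and 3.76 on DMSO arrays and between 3.86 and 3.96 on SP600125 arrays. All 10 neuron markers examined, among them Tubb3, Rbfox3, Map2 and Syn1, had a mean signal above 5.43, the 95th percentile of the olfactory receptor genes. So did all 5 fibroblast markers, 5 of 6 astrocyte markers and all 5 markers of neural progenitors. Of 6 endothelial and 6 microglial markers, 4 each did not reach that value, nor did 4 of 8 mural cell and pericyte markers.

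Both b arrays stood apart from the other arrays of their groups. The mean of the 10 neuron markers was 8.69 on DMSO replicate b against 9.08 to 9.10 on the other DMSO arrays, and 8.91 on SP600125 replicate b against 8.28 to 8.42 on the other SP600125 arrays. The neuron markers were thus higher on the treated b array than on the solvent b array, against their direction in the other replicates. Jun, the best known target of JNK, behaved otherwise. The arrays measure Jun mRNA and not the phosphorylation of Jun, so Jun is no direct check of the inhibitor. Its signal was 8.57 on DMSO replicate b and 7.84 on SP600125 replicate b, the highest DMSO and the lowest SP600125 value of that gene. Over all arrays Jun fell by 0.56 (SE 0.06, limma adjusted p = 8.0e-05). Results are given with all arrays, and for the RGS genes that changed, their partners and the lists whose counts moved also without both b arrays. The b arrays were singled out with their values known, so leaving out either or both can favour the differences seen in the other arrays. Changes, p-values and counts from such fits are descriptions only.

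Rgs4, which acts on Gi, Go and Gq and is abundant in the brain, was lower after SP600125. Its log2 signal was 8.68, 8.25, 8.82, 8.77 and 8.80 on DMSO replicates a to e. After SP600125 it was 7.40, 8.20, 7.62, 7.42 and 7.61 in the same order. All SP600125 arrays lay below all DMSO arrays, but the b arrays came within 0.1 of each other while the other arrays of the groups were far apart. The means were 8.66 ± 0.24 and 7.65 ± 0.32 (SD, n = 5 each), and the change was -1.01 (SE 0.14) in the fit with drug batch as a term, a level 0.495 times that of DMSO. Only 1 of the 19938 genes had a larger fall. Without both b arrays the change was -1.26 (SE 0.06). It was -0.83 (SE 0.13) after cyclic loess scaling of the arrays, where 7 genes fell more. The difference was -0.66 in drug batch 1, which rests on replicates a and b, and -1.25 in drug batch 2. Genes within 0.5 of the mean signal of Rgs4, 2311 in number, had a median change of -0.24.

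**Figure D1:**
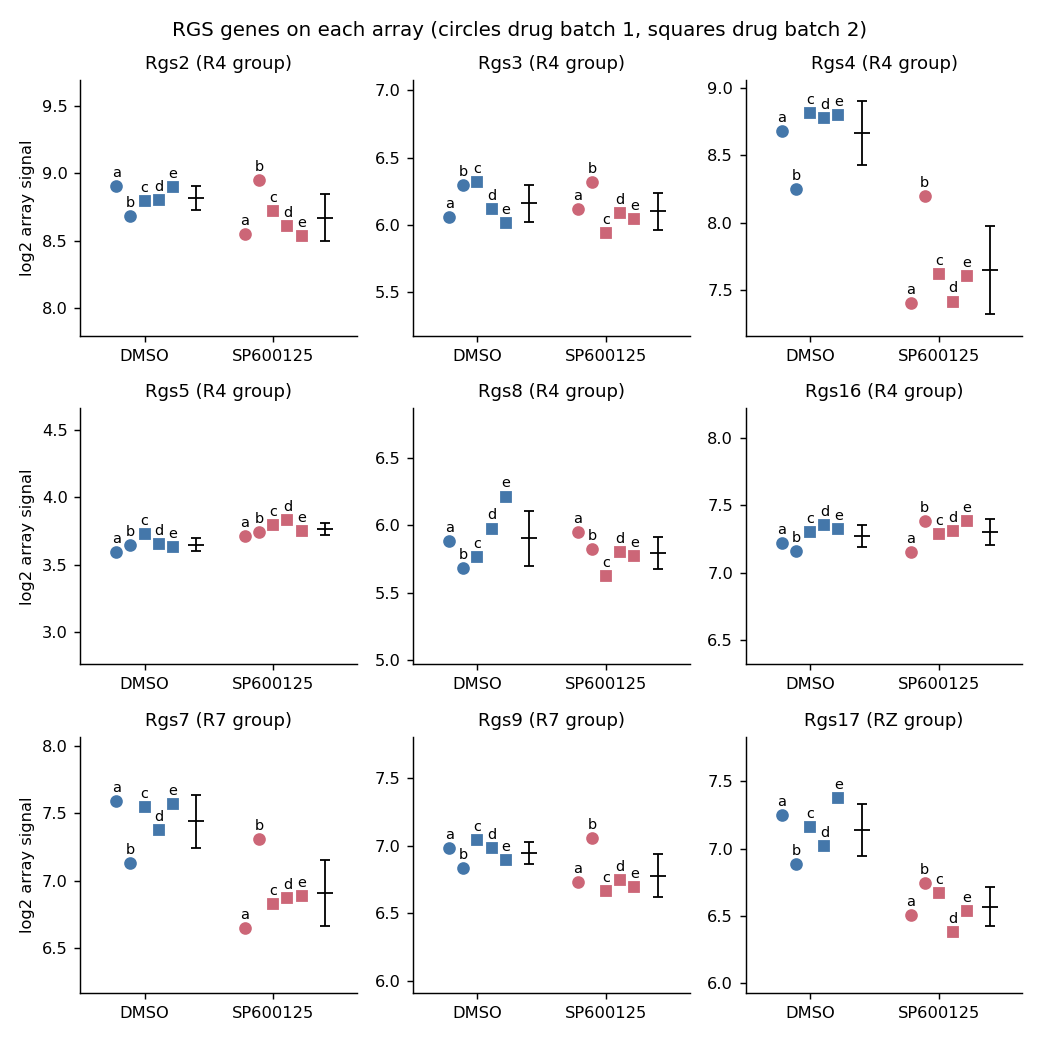
Log2 array signal (vertical axes, each spanning the same range of log2 units) of the 9 RGS genes on each DMSO and SP600125 array, labelled by replicate, with circles for drug batch 1, squares for drug batch 2 and black bars for the mean and SD of 5 arrays. Rgs4, Rgs7 and Rgs17 are lower after SP600125, and the b arrays of Rgs4 lie next to each other at 8.25 and 8.20.

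The 5 other R4 genes did not pass an adjusted p of 0.05. Rgs2, which prefers Gq and is induced rapidly by many stimuli, was 8.90, 8.68, 8.79, 8.80 and 8.90 on DMSO replicates a to e and 8.54, 8.95, 8.72, 8.61 and 8.53 on SP600125. The groups overlapped, with SP600125 replicate b the highest of all 10 arrays and SP600125 replicate c (8.72) also above DMSO replicate b (8.68). The change of Rgs2 was -0.14 (SE 0.08, limma adjusted p = 0.163). It passed without SP600125 replicate b (-0.22, limma adjusted p = 0.0163) and without both b arrays (-0.25, limma adjusted p = 0.0100), and it turned to 0.025 after cyclic loess. Rgs16, known as an inducible gene and as a rhythmic gene of the central clock, had a DMSO mean of 7.27 ± 0.08 and an SP600125 mean of 7.30 ± 0.09 (SD, n = 5), and its change was 0.03 (SE 0.06). After cyclic loess Rgs16 was higher by 0.20 (limma adjusted p = 0.0148), while genes within 0.5 of its mean signal had a median change of -0.21 on the deposited scale.

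Rgs8, best known from cerebellar Purkinje cells, ranged from 5.68 to 6.21 on DMSO arrays and from 5.62 to 5.95 on SP600125 arrays, which overlap, and changed by -0.11 (SE 0.09, limma adjusted p = 0.362). Rgs5, a marker of pericytes, lay between 3.59 and 3.72 on DMSO arrays and between 3.71 and 3.83 on SP600125 arrays. These values are within or below the olfactory receptor medians of the same groups, so Rgs5 was not measured above background. Its change of 0.12 (SE 0.05, limma adjusted p = 0.0920) was smaller than the median change of the olfactory receptor genes, 0.23.

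Rgs3, which also binds G beta gamma, had 2 probe sets that differed. The brighter one, used here, was 6.16 ± 0.14 after DMSO and 6.10 ± 0.14 after SP600125 (SD, n = 5), and its difference was -0.06 (SE 0.08, limma adjusted p = 0.544). The dimmer one was 5.59, 5.71, 5.46, 5.59 and 5.40 on DMSO replicates a to e and 6.02, 5.85, 5.75, 5.71 and 5.66 on SP600125. It was higher on every SP600125 array than on each DMSO array of the same batch. Its change was 0.25 (SE 0.06, limma adjusted p = 0.00682 over 21789 probe sets), and it was 0.27 without both b arrays and 0.18 after cyclic loess (limma adjusted p = 0.0277). The median change of the olfactory receptor genes was 0.23, close to this value on the deposited scale. The dimmer probe set had means of 5.55 after DMSO and 5.80 after SP600125, against an olfactory receptor 95th percentile of 5.43. The deposited values do not say which transcripts of Rgs3 each probe set reports.

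In the R7 group Rgs7, a brain RGS protein that acts on Go, fell. It was 7.59, 7.13, 7.54, 7.37 and 7.57 on DMSO replicates a to e and 6.65, 7.31, 6.83, 6.87 and 6.89 on SP600125. The groups overlapped through the b arrays alone, where the SP600125 value was above the DMSO value. The change was -0.53 (SE 0.12, limma adjusted p = 0.00270), and without both b arrays it was -0.71 (SE 0.07). After cyclic loess it was -0.38 (limma adjusted p = 0.0175). Rgs9, known for phototransduction and for dopamine signalling in the striatum, was 6.98, 6.83, 7.05, 6.98 and 6.89 after DMSO and 6.73, 7.06, 6.66, 6.75 and 6.70 after SP600125. SP600125 replicate b was the highest of the 10 arrays for Rgs9. The change was -0.17 (SE 0.08) and did not pass (limma adjusted p = 0.0874). It passed without SP600125 replicate b (-0.24, limma adjusted p = 0.00669), without DMSO replicate b (-0.22, limma adjusted p = 0.0368) and without both (-0.27, limma adjusted p = 0.00402), and it was -0.04 after cyclic loess (limma adjusted p = 0.657). The other R7 genes, Rgs6 (-0.23, SE 0.10, limma adjusted p = 0.0636) and Rgs11 (0.08, SE 0.06), did not pass. Rgs6 passed without both b arrays at -0.35 (limma adjusted p = 0.00435).

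The partners of the R7 proteins were examined as a list of 5 genes, of which 3 fell and none rose. Gnb5, without which R7 proteins are unstable, was 7.67, 7.49, 7.78, 7.80 and 7.62 after DMSO and 6.94, 7.42, 7.17, 7.05 and 7.02 after SP600125. All SP600125 arrays lay below all DMSO arrays. Gnb5 fell by 0.55 (SE 0.09, limma adjusted p = 0.000548). The other genes that fell were Rgs7bp, which anchors R7 dimers at the membrane (-0.40, SE 0.10), and Gpr158, an orphan receptor that binds them (-0.61, SE 0.12), both named after their values were seen. Among all genes tested 29.9% were lower and 17.0% higher. The changes without both b arrays were -0.67 for Gnb5, -0.56 for Rgs7bp and -0.78 for Gpr158. After cyclic loess Rgs7bp did not pass (-0.22, limma adjusted p = 0.0797). Rgs9bp and Gpr179, the corresponding partners in the retina, had changes of 0.11 (SE 0.06) and 0.09 (SE 0.08) and did not pass.

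Rgs17 of the RZ group fell. Its signal was 7.25, 6.89, 7.16, 7.02 and 7.38 on DMSO replicates a to e and 6.51, 6.75, 6.67, 6.38 and 6.54 on SP600125. All SP600125 arrays lay below all DMSO arrays, again with the b arrays closest. The means were 7.14 ± 0.19 and 6.57 ± 0.14 (SD, n = 5), and the change was -0.57 (SE 0.10, limma adjusted p = 0.000578), -0.67 without both b arrays and -0.45 after cyclic loess (limma adjusted p = 0.00313). Genes within 0.5 of its mean signal had a median change of -0.18. The remaining genes of the RZ group, Rgs19 and Rgs20, fell as well. Rgs20 had DMSO values from 5.87 to 6.12 and SP600125 values from 5.43 to 5.86, and fell by 0.46 (SE 0.08, limma adjusted p = 0.000916). Its groups did not overlap, but the b arrays were nearly equal at 5.87 and 5.86, and without them its change was -0.58. Rgs19 had DMSO values from 6.63 to 6.88 and SP600125 values from 6.33 to 6.43 and fell by 0.33 (SE 0.06, limma adjusted p = 0.000968). For Rgs19 SP600125 replicate b, at 6.38, lay within the range of the other SP600125 arrays, and the change without both b arrays was -0.35. Gnaz, the alpha subunit of Gz on which RZ proteins act, fell by 0.81 (SE 0.14, limma adjusted p = 0.000607), a gene named after its value was seen. Its groups overlapped, with SP600125 arrays reaching 6.99 and DMSO arrays as low as 6.98.

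**Figure D2:**
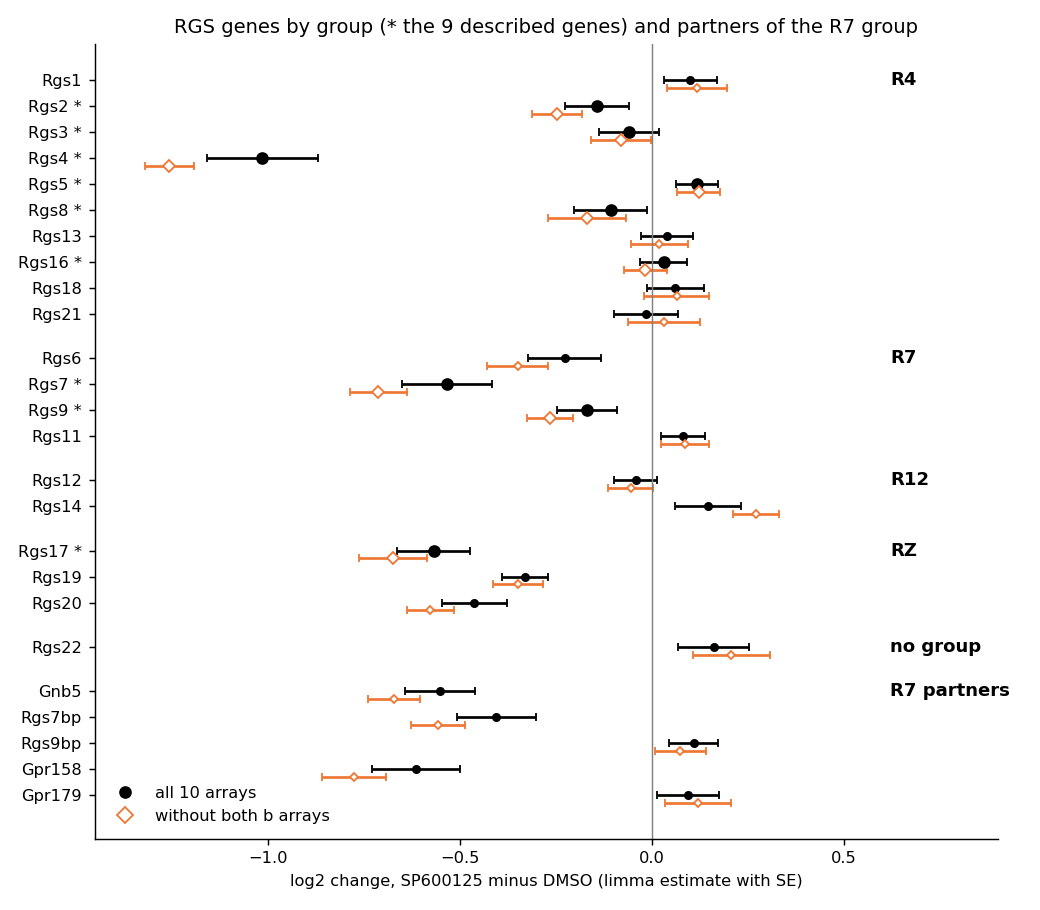
Log2 change (horizontal axis, SP600125 minus DMSO, limma estimate with SE) of 20 RGS genes by group and of 5 partners of the R7 group, with filled circles for all 10 arrays and open diamonds for the 8 arrays without replicate b. Rgs4 is at -1.01 and -1.26, and the 3 RZ genes Rgs17, Rgs19 and Rgs20 lie between -0.67 and -0.33 in both fits.

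Of the 9 genes, 3 fell, none rose and 6 did not pass, against 29.9% lower and 17.0% higher among all genes tested with limma. Their median change was -0.14, against -0.03 for all genes. Without both b arrays 5 fell and none rose, against 31.6% lower and 17.1% higher among all genes. All 5 SP600125 arrays lay below all 5 DMSO arrays for 2 of the 9, Rgs4 and Rgs17, and above them for none, against 16.4% and 6.65% of all genes. Within both drug batches SP600125 lay wholly below DMSO for the same 2 genes, against 21.1% of all genes, and wholly above for Rgs5, against 10.2%. These shares are near those of all genes or rest on a choice made with the result known, and nothing is read from them. Of the 11 other RGS genes, 2 fell, which were Rgs19 and Rgs20, and none rose, with a median change of 0.04. Without both b arrays Rgs6 fell as well, and Rgs14, an R12 gene of hippocampal neurons, was higher by 0.27 (limma adjusted p = 0.00357), against 0.15 (limma adjusted p = 0.175) with all arrays. After cyclic loess of all arrays Rgs14 was higher by 0.10 and did not pass (limma adjusted p = 0.404). Its DMSO mean was a dim 5.72, and the olfactory receptor genes had a median change of 0.23. The R4 genes Rgs1, Rgs13, Rgs18 and Rgs21, known mostly from blood cells and taste cells, had mean DMSO signals from 2.78 to 3.24, below the olfactory receptor medians, and were not measured above background.

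The position of each array was set on a scale from 0, the mean of the DMSO arrays of drug batch 2, to 1, the mean of the SP600125 arrays of that batch. DMSO replicate b lay at 0.439 for Rgs4, 0.580 for Rgs7 and 0.458 for Rgs17, and at 0.561 for the mean of the 10 neuron markers. SP600125 replicate b lay at 0.477, 0.295 and 0.672 for these genes and at 0.260 for the neuron markers. For Jun the same arrays lay at -0.068 and 1.36. The b arrays were thus intermediate for Rgs4, Rgs7 and Rgs17 and for the neuron markers, and not for Jun. Rgs19 also fell, and its SP600125 replicate b was not intermediate. Of the 10 neuron markers 9 fell, against 29.9% of all genes, with a median change of -0.57. All 10 fell without both b arrays, against 31.6% of all genes, with a median of -0.77. Their mean signal ranged from 8.69 to 9.10 on DMSO arrays and from 8.28 to 8.91 on SP600125 arrays. Their part in the changes of the RGS genes was not tested. In bulk RNA, fewer neurons and less of a transcript per neuron cannot be told apart. Markers of other cell types changed as well, with 29.9% of all genes lower and 17.0% higher. Falls were seen in 3 of 5 fibroblast, 3 of 6 astrocyte, 2 of 5 oligodendrocyte and 1 of 5 neural progenitor markers, and no rises. Of 6 microglial markers 3 rose and none fell, and of 6 endothelial markers 1 fell and 1 rose. The microglial Aif1 (0.23) and Itgam (0.21) and the endothelial Cldn5 (0.25) rose from signals not above 5.43, the olfactory receptor 95th percentile. The olfactory receptor genes had a median change of 0.23. Cx3cr1, the other microglial marker that rose (0.44), was above that percentile. The mural cell and pericyte markers, which bear on Rgs5, ranged from 6.18 to 6.31 and from 6.05 to 6.23 in the 2 groups, and 3 of the 8 fell and 1 rose, against 29.9% lower and 17.0% higher among all genes. The mural marker that rose, Abcc9 (0.24), was not above the olfactory receptor 95th percentile either.

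**Figure D3:**
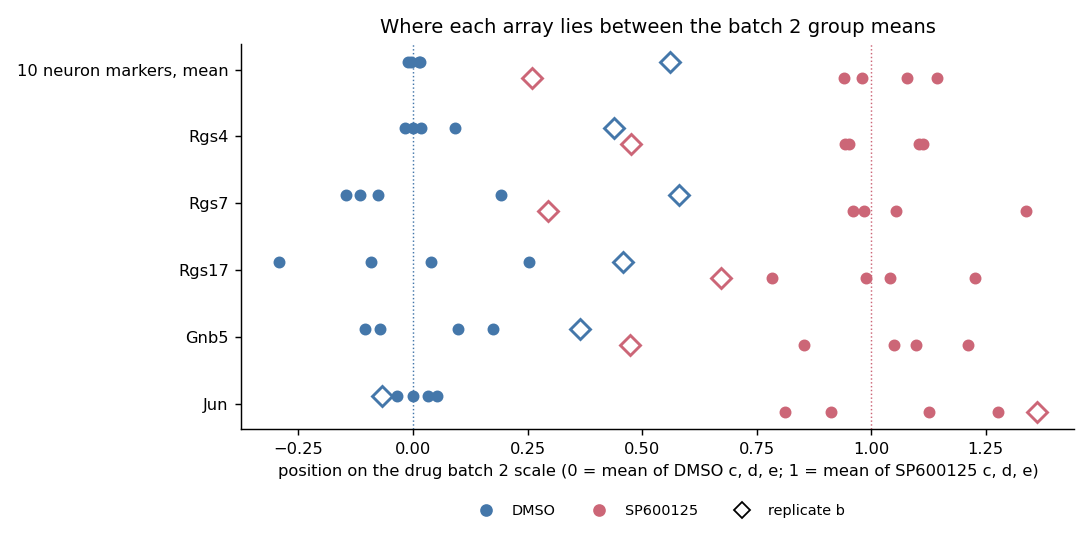
Position of each array (horizontal axis, 0 for the mean of DMSO c, d and e and 1 for the mean of SP600125 c, d and e) for the mean of 10 neuron markers, for Rgs4, Rgs7, Rgs17 and Gnb5 and for Jun, with open diamonds for replicate b. For Rgs4 both b arrays lie near the middle, at 0.439 and 0.477, while for Jun they lie at -0.068 and 1.36, the outer ends of their groups.

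The response of the RGS genes was also compared between drug batches. The change in drug batch 2 minus that in drug batch 1 ranged from -0.59 for Rgs4 (SE 0.26) to 0.02 for Rgs5. None of the 9 interaction terms passed with limma (lowest adjusted p = 0.524), and 0% of all genes did. At an unadjusted p under 0.05 there was 1 of the 9, Rgs4, and 1852 of all genes. The closeness of the b arrays of Rgs4, which are part of drug batch 1, was known when these genes were picked, so its term restates that and is a description only. The drug batch itself is a difference that did not enter the choice of these genes. It changed none of the 9 at an adjusted p of 0.05, against 0.722% of all genes. At an unadjusted p under 0.05 it also changed none of the 9, against 2779 of all 19938 genes. Batch 2 minus batch 1 ranged from -0.11 for Rgs3 to 0.10 for Rgs16. For Rgs4 it was 0.04 (SE 0.15).

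Several of these genes are neighbours. In the RefSeq annotation of GRCm38.p6, Rgs4 and Rgs5 lie next to each other on chromosome 1 with no protein-coding gene between them, as do Rgs8 and Rgs16, and Rgs2 lies next to Rgs13. Of the first pair Rgs4 changed while Rgs5 was at background, and neither gene of the second pair passed. The 250 bases before the RefSeq start are shown for the 3 genes that fell and for Rgs16, which did not pass. They were read 5′ to 3′ on the strand of the gene, from RefSeq promoter windows of GRCm38.p6. Capitals mark exact matches, on either strand, to the AP-1 motif TGANTCA, to the CRE motif TGACGTCA and to the CCAAT box, the last written ATTGG where it is on the opposite strand. AP-1 is the site of the Jun family, CRE that of the CREB and ATF family, and the CCAAT box that of NF-Y.
Rgs4, chr1:169747643-169747892, minus strand: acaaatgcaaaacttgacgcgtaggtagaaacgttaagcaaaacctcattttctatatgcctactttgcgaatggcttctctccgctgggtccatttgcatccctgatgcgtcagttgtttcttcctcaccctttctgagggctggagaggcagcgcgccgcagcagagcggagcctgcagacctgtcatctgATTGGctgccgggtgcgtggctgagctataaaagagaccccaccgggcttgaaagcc
Rgs7, chr1:175492546-175492795, minus strand: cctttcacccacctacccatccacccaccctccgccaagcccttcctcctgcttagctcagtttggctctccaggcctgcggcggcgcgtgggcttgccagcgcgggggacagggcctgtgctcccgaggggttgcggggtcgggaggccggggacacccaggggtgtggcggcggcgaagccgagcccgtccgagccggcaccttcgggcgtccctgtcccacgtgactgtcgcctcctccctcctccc
Rgs17, chr10:5922401-5922650, minus strand: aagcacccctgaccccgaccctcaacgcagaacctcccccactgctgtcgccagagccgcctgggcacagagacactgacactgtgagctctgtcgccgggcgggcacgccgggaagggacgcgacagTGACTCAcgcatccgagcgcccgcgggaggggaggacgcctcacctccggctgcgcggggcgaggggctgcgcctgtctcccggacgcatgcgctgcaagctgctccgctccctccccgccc
Rgs16, chr1:153740103-153740352, plus strand: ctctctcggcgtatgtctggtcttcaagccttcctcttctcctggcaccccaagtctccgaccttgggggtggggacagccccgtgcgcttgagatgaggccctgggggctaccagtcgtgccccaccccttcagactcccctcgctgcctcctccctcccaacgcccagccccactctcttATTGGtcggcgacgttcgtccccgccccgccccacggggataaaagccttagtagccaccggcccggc
The Rgs4 window holds 1 match, a CCAAT box on the opposite strand from 57 to 53 bases before the start. The Rgs17 window holds 1 AP-1 match from 122 to 116 bases before the start, the Rgs7 window holds none of the 3 motifs, and Rgs16 has a CCAAT box from 68 to 64 bases before its start. A CCAAT box was found in 33.8% of 32536 windows of this length, an AP-1 match in 6.73% and a CRE match in 1.56%. Over the windows of all 10 genes, AP-1 was found in Rgs17 only and CRE in none. CCAAT boxes were found in Rgs2, Rgs5, Rgs8 and Rgs9 as well, whose changes did not pass with all arrays. The G and C content was 53.6% for Rgs4, 72.4% for both Rgs7 and Rgs17, and 66.4% for Rgs16. A match is a run of letters and does not show that a factor is bound there.

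Over the 10 arrays, the genes whose signal followed Rgs4 most closely were Tspyl4 (Pearson r = 0.997), Slc17a6, a vesicular glutamate transporter that is also among the neuron markers (0.997), Nsf, the ATPase of vesicle fusion (0.995), Plxna4, a semaphorin receptor (0.995), and Nsg1 (0.995). Their changes ran from -0.84 for Slc17a6 to -0.60 for Plxna4. The 10 arrays share the treatment and the b arrays, which raise these correlations together. Without both b arrays the 5 closest genes were Mlec, Xylt1, Bace1, Cltb and Aplp1, and 0 of the first 5 were among them. Among the RGS genes themselves the correlation with Rgs4 was 0.961 for Rgs7, 0.944 for Rgs17, 0.832 for Rgs9 and 0.780 for Rgs2. It was 0.411 for Rgs8, 0.305 for Rgs3, 0.143 for Rgs16 and -0.734 for Rgs5.

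The genes on which RGS proteins act, and those that act on them, were counted by role. Beside these counts, 29.9% of all genes tested were lower and 17.0% higher. Of 14 G alpha subunits 8 fell and 2 rose, with a median change of -0.19. Gna11 of the Gq class fell by 0.45 (SE 0.09) and Gnai2 by 0.21 (SE 0.06), while Gnat2, a cone transducin, rose by 0.27 (SE 0.07) from a dim mean of 4.85. Gnat2 did not pass after quantile normalization (0.12) or cyclic loess (0.13), and neither did Gnai2 after cyclic loess (-0.11). Of 16 G beta and gamma subunits 6 fell and 3 rose. Gnb2 fell by 0.24 (SE 0.07), and Gngt2 and Gngt1, the transducin gamma subunits, rose by 0.26 (SE 0.07) and 0.17 (SE 0.06) from means of 4.24 and 3.33. None of these 3 passed after quantile normalization or cyclic loess. Genes within 0.5 of the mean signal had median changes of -0.24 for Gna11, -0.18 for Gnai2 and 0.14 for Gnat2. They were -0.23 for Gnb2, 0.15 for Gngt2 and 0.11 for Gngt1.

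Of 24 G protein coupled receptors 12 fell and 4 rose, with a median of -0.29, and without both b arrays 15 fell and 4 rose. For this list and those below, 29.9% of all genes were lower and 17.0% higher. Without both b arrays these shares were 31.6% and 17.1%. The serotonin receptor Htr2a fell by 0.50 (SE 0.09) and the glutamate receptors Grm7 and Grm8 by 0.41 (SE 0.08) and 0.40 (SE 0.10). Grm8 was dim, with means of 5.49 after DMSO and 5.09 after SP600125, against an olfactory receptor 95th percentile of 5.43. Of 6 receptor kinases and arrestins 3 fell and none rose, with Arrb2, a beta-arrestin, at -0.28 (SE 0.07), which was -0.11 after cyclic loess (limma adjusted p = 0.219). Of 16 effectors 8 fell and 1 rose, and without both b arrays 9 fell and none rose. Those that fell included the adenylyl cyclases Adcy5 (-0.44, SE 0.07), Adcy8 (-0.40, SE 0.08) and Adcy3 (-0.28, SE 0.07). Of 6 other G protein modulators 4 fell and none rose. Gpsm2, which binds Gi alpha in its GDP form, fell by 0.43 (SE 0.08), and the chaperones of G alpha subunits Ric8a and Ric8b fell by 0.21 (SE 0.06) and 0.17 (SE 0.06). Ric8a and Ric8b did not pass after cyclic loess (-0.12 and 0.022). Genes within 0.5 of the mean signal had median changes of -0.04 for Htr2a, -0.22 for Grm7 and 0.11 for Grm8. They were -0.22 for Arrb2, -0.18 for Adcy5, -0.22 for Adcy8 and -0.10 for Adcy3. For Gpsm2, Ric8a and Ric8b they were -0.12, -0.15 and -0.22.

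Rgs4, Rgs5 and Rgs16 proteins are known substrates of the N-degron pathway, in which Met aminopeptidases, the arginyltransferase Ate1 and UBR ubiquitin ligases act in turn. Of 5 genes of this pathway 4 fell and none rose. Ate1 fell by 0.51 (SE 0.07, limma adjusted p = 0.000211), Metap1 by 0.22 (SE 0.06) and Metap2 by 0.22 (SE 0.06). Genes within 0.5 of the mean signal of Ate1, Metap1 and Metap2 had median changes of -0.23, -0.24 and -0.22, so the falls of Metap1 and Metap2 were near those of genes of like signal. After cyclic loess Ate1 alone passed, at -0.32 (limma adjusted p = 0.00194). All these lists were written with earlier results of these data known, and 29.9% of all genes were lower and 17.0% higher.

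**Figure D4:**
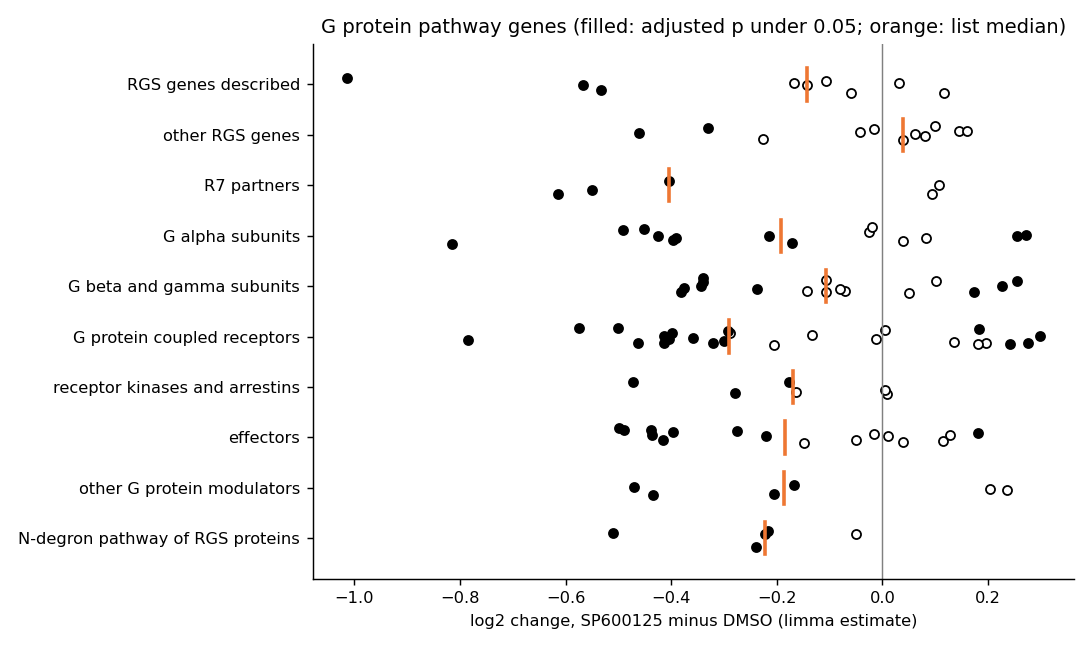
Log2 change (horizontal axis, SP600125 minus DMSO, limma estimate, all 10 arrays) of the 9 RGS genes and of the genes of 9 lists of the G protein pathway, filled where the adjusted p was under 0.05, with an orange bar for the list median. The medians lie between -0.40 for the R7 partners and 0.04 for the other RGS genes.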

How the data were processed

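The authors deposited log2 expression values for 35556 probe sets on each of the 10 arrays. Per the submitters' processing notes, the software was oligo 1.14.0. How background was corrected and arrays were normalized and summarized is not given in the sources used, and the log2 scale was taken from the values (1.90 to 13.8). Gene names came from the platform annotation, in which 21789 probe sets carried 1 symbol, 1621 several and 12146 none. Rgs10 was among the genes without a probe set of its own.

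Samples were grouped by the agent in their labels. Differences were tested over all 19938 genes with limma 3.58.1 in R 4.3.3 (lmFit, eBayes, two-sided) with treatment and drug batch as terms and 7 residual degrees of freedom, at a Benjamini-Hochberg adjusted p of 0.05. An interaction term tested whether the change differed between the drug batches. The fit was tested on simulated data. The genes described and all gene lists were chosen with earlier results of these data known. Pathway genes were named by size, up to 3 per list, among those past the threshold and separated within both batches. Alternatives were 4 other scalings, no batch term, a replicate block, an intensity trend, a filter on dim genes, averaged probe sets and left-out arrays. Leaving out both b arrays for the pathway lists and testing all probe sets were added after seeing the data. The planned comparison of the proteins was not run, since no protein sequences were used here.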

Additional observations from a re-analysis of the deposited data

Results flagged for a closer look

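A sample far from the other 4 of its group was found in 4 of 64 groups of 5 checked (32 genes), where chance flags about 1 in 20. In Rgs4, DMSO replicate b (8.25) was the lowest of its group, with the next at 8.68, and SP600125 replicate b (8.20) was the highest of its group, with the next at 7.62. In Rgs9, SP600125 replicate b (7.06) was the highest of its group, with the next at 6.75. In Adcy5, SP600125 replicate b (6.78) was also the highest, with the next at 6.58. The closeness of the Rgs4 b arrays was known when these genes were picked, so its 2 values are a description and say nothing against the chance rate. All 4 values are from b arrays, and no interaction of treatment and drug batch passed for these genes.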

How the results depend on the processing

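Rgs4, Rgs7 and Rgs17 kept their direction, and Rgs7 and Rgs17 an adjusted p under 0.05, under all 20 alternative settings that were tried, with changes from -1.26 to -0.83, from -0.71 to -0.38 and from -0.67 to -0.45. The number of RGS genes that fell, 3 with all arrays, was 5 after centring each array on its median (which moved the median change of all genes from -0.03 to -0.13) and 5 without both b arrays, and it ranged from 3 to 5 when 1 replicate was left out. The number that rose was 0 in each of these but was 1 after cyclic loess (Rgs16), and centring on named genes also gave 1 (Rgs5, 0.15). Changes that did not pass turned sign in some settings. Rgs2 was 0.0024 after quantile normalization and 0.025 after cyclic loess. Rgs3 was 0.093 with its probe sets averaged and 0.25 with the dimmer one. Rgs5 was -0.0029 after quantile normalization. Rgs16 was -0.070 after median centring, -0.017 without both b arrays and -0.012 without SP600125 replicate b, the low end of a range up to 0.058 when 1 replicate was left out. Ric8b, which fell with all arrays as deposited, was 0.022 after cyclic loess, a reversed direction. The share of rises among all called genes was 36.2% as deposited and 25.0% with quantile normalization, 14.8% with median centring, 34.7% with cyclic loess and 46.9% with named genes as the reference.

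In the pathway lists, quantile normalization left 0 G alpha subunits, 1 G beta or gamma subunit and 0 effectors higher and 2 genes of the N-degron pathway lower. Cyclic loess left 0, 1 and 0 higher, 5 G alpha subunits, 2 other modulators and 1 N-degron gene lower. Without both b arrays, 1 of the other RGS genes and 0 effectors were higher. Of the 5 genes most like Rgs4, 0 were shared without both b arrays. The other 101 of 119 counts stayed within 1.5 times.

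With the replicate letter as a block (replicate block) the 3 falls and 0 rises were unchanged in number, and Rgs4 had an SE of 0.16. Same-letter deviations from the group means correlated between -0.21 and 0.10 across genes, and only c correlated best with its own letter. The lowest value, -0.21, was that of b, whose arrays deviated in opposite directions for Rgs4 and the neuron markers. Whether arrays of the same letter share more than a name cannot be decided from these correlations, since a shared cause could act in opposite directions. The number of arrays and dim signals limit Rgs5 and the dim RGS genes.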
